A study of Mus musculus with 4 samples.

Results

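The aldehyde dehydrogenases are NAD(P)-dependent enzymes that turn aldehydes into carboxylic acids, and 10 of their genes were followed here in cultured mouse pancreatic tumor cells. The 10 genes, Aldh1a1, Aldh1a2, Aldh1a3, Aldh1a7, Aldh1b1, Aldh2, Aldh3a1, Aldh3a2, Aldh3b1 and Aldh9a1, were chosen by name as a family after Aldh1a1 and Aldh3a1 had been seen to differ widely between the cell lines of this series. All 10 were found by gene symbol among 19938 measured genes, each through 1 transcript cluster (the set of probes that stands for a transcript). Because the levels in the lines took part in the choice, they are given as a description. RNA came from untreated cells in culture. The TPAC lines K459 and TCPA18654 carry p65fl/fl, which removes RelA/p65 of NF-κB where Cre acts, and the TPC lines TPC18645 and TPC20223 do not. Both genotypes share the Ela-TGFa transgene, in which the elastase promoter drives TGF-α in the pancreas, the pancreatic Cre allele that the labels spell Ptg1a+/CRE, and Trp53fl/fl. Each line was measured on 1 array, ages of the mice are not given, and the labels do not tell if 2 lines of 1 genotype stem from different mice, so a p-value speaks only for the spread among these cultures.

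Members of the ALDH1A class oxidize retinaldehyde to retinoic acid, the ligand of the RAR receptors, and ALDH1A1 together with ALDH3A1 is widely used to mark stem-like and drug-resistant tumor cells. ALDH2 and ALDH1B1 act in mitochondria on acetaldehyde and related compounds, ALDH3 enzymes on aromatic, fatty and lipid-peroxidation aldehydes, and ALDH9A1 on an aminoaldehyde of carnitine synthesis. In the exocrine pancreas, high aldehyde dehydrogenase activity is known from centroacinar cells.

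TPC20223 stood apart from the other lines, and this bears on every value below. Of 11 measured ductal and epithelial marker genes, 10 were lowest in TPC20223, where 38.8% of all genes were. Their summed linear signal was 3193 in TPC20223 against 31625 to 50552 in the other lines. Krt18, a keratin of simple epithelia, had a log2 signal of 6.50 in TPC20223 and of 12.92 to 13.30 in the others. Of 15 mesenchymal and fibroblast genes, 13 were highest in TPC20223, where 28.1% of all genes were. Only 5 of the 15 were highest there by 1 or more on the log2 scale, as were 4.24% of all genes. The summed signal of the 15 was 50000 in TPC20223 and 28232 to 33557 in the others. Markers of immune, endothelial and Schwann cells summed to 852 in TPC20223 and 912 to 1089 in the others, and those of acinar cells to 810 and 663 to 1114. The signals have no true zero, so no marker can be called absent. TCPA18654 and TPC18645, of different genotype, differed at least 2-fold in only 54 of all genes, whereas TPC20223 and TPC18645, of the same genotype, did so in 2243. Rela, the gene that p65fl/fl targets, had 10.82 in K459 and 11.10 in TCPA18654, against 11.12 in TPC18645 and 10.70 in TPC20223. Where its probes lie on the transcript was not examined, so its signal does not check the labels. In RNA of a whole culture, fewer cells of a type and less RNA per cell cannot be told apart. The part of these differences between lines in the results for the aldehyde dehydrogenase genes was not tested.

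Aldh1a1 and Aldh1a7 lie next to each other on chromosome 19 with 0 protein-coding genes between them, and Aldh3a1 and Aldh3a2 are likewise adjacent on chromosome 11. Promoter windows from 250 bases before to 50 after a transcript start were at hand for 7 of the 10 genes (RefSeq, GRCm38.p6). Those of Aldh1a1 and Aldh1a7, which were low in the same line, and of Aldh1a2, which was high in it, are printed here 5′ to 3′. Capitals mark matches, on either strand, to the TATA box TATAAA, the CCAAT box, the GC box GGGCGG, the xenobiotic response core GCGTG, the antioxidant response core TGACNNNGC, the nuclear receptor element AGGTCA or the octamer ATGCAAAT. The octamer was added to the search after the windows had been read.
Aldh1a1, chr19:20601718-20602017, plus strand: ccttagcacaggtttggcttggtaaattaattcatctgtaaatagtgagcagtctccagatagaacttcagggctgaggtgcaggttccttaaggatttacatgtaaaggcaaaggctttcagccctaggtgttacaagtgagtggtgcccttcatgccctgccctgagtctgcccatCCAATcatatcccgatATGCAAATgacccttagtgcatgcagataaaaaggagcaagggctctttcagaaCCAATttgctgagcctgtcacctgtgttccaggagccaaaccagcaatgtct
Aldh1a7, chr19:20727507-20727806, minus strand: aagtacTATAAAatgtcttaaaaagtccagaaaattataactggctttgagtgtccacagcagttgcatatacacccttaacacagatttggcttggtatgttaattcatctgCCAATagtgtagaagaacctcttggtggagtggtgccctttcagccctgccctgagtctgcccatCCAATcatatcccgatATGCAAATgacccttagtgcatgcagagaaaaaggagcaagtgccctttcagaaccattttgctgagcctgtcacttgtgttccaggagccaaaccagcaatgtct
Aldh1a2, chr9:71215539-71215838, plus strand: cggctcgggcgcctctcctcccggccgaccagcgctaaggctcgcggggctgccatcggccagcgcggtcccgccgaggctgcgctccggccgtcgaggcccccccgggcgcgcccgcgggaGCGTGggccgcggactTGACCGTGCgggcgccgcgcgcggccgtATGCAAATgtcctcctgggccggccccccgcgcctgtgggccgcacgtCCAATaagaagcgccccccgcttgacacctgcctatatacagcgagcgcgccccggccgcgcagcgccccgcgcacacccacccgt
The windows of Aldh1a1 and Aldh1a7 read almost alike close to the start. Without gaps, 125 of the last 130 bases, a length chosen by hand, were identical (96.2%). An unbroken run of 65 identical bases holds a CCAAT box at -72 to -68 and the octamer at -56 to -49. Positions are counted from the first transcribed base as 1. Over all 300 bases 59.0% were identical, against 22.0% between Aldh1a1 and Aldh1a2. Counting without gaps misses stretches that are alike but shifted in position, so likeness farther from the start is not measured. The octamer occurs in 1.74% of 32851 promoter windows and the CCAAT box in 37.4%; the Aldh1a2 window held both, at -84 to -77 and at -36 to -32. That window was also rich in G and C, at 78.0% against 47.0% in Aldh1a1 and 44.0% in Aldh1a7, and held 1 xenobiotic core and 1 antioxidant core, letters found in 32.4% and 12.4% of windows. An Aldh1a1 window at a start farther upstream held no match. Matches describe the sequence and are not shown to be used. The array annotation lists 0 accessions shared between the Aldh1a1 and Aldh1a7 clusters, but whether RNA of one binds probes of the other was not tested, and their signals are uncertain to that extent.

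Among the ALDH1A genes, Aldh1a1, the cytosolic retinaldehyde dehydrogenase, had log2 signals of 10.16 in K459 and 12.04 in TCPA18654 (TPAC), against 12.44 in TPC18645 and 5.84 in TPC20223 (TPC). It was thus high in 3 lines of both genotypes and low in TPC20223, where its signal lay 4.32 below the next line, a 20.0-fold gap. Aldh1a7, its rodent paralog with little known activity on retinaldehyde, had 7.97 in K459 and 8.89 in TCPA18654, against 9.55 in TPC18645 and 5.65 in TPC20223. The order of the 4 lines was the same as for Aldh1a1, over a narrower span, and TPC20223 lay 2.32 below the next line. Both signals of TPC20223 were below 6.96, the 40th percentile of the mean signal over all genes and the limit of what is called dim here. The files give no detection call, so folds that reach into this range are inexact.

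The other retinoic acid-forming genes did not share this pattern. Aldh1a2, which supplies retinoic acid to the early mouse embryo, had 5.54 in K459 and 5.49 in TCPA18654, against 5.52 in TPC18645 and 6.75 in TPC20223. Here TPC20223 was the highest line, by 1.21, and the other lines lay within 0.05 of each other at a dim signal. Aldh1a3, the enzyme of several embryonic and adult epithelia, had 8.44 in K459 and 8.25 in TCPA18654, against 7.82 in TPC18645 and 7.38 in TPC20223. Its TPAC lines were both above its TPC lines, and its whole range was 1.06.

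**Figure D1:**
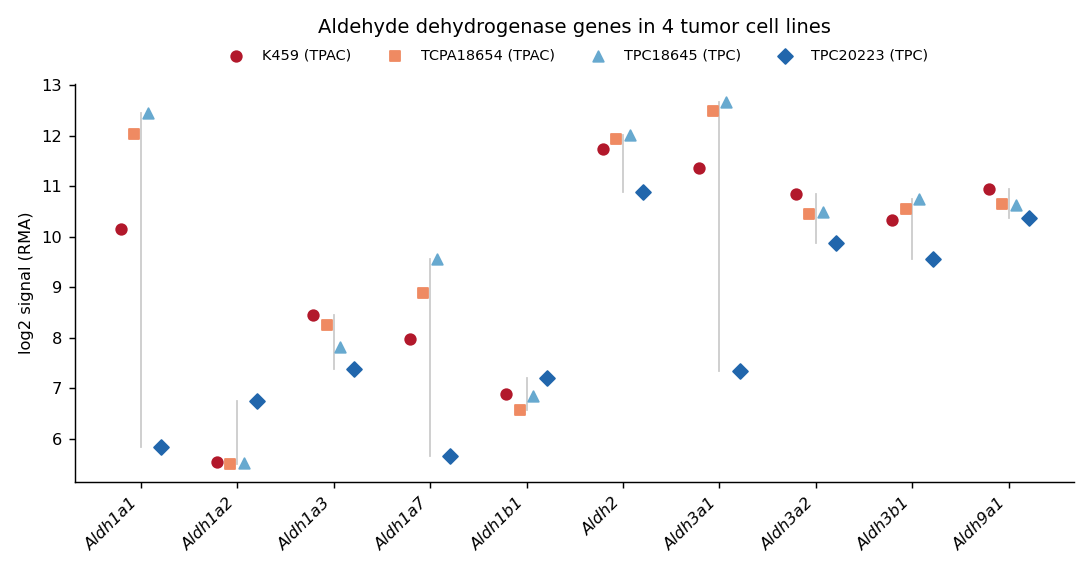
Log2 signal (RMA) of each of the 10 genes in the 4 lines; each point is 1 array, with TPAC lines in red and orange and TPC lines in light and dark blue, and grey bars span the range. TPC20223 is lowest for 8 genes, and far below the other lines for Aldh1a1 (5.84), Aldh3a1 (7.34) and Aldh1a7 (5.65).

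Of the ALDH3 genes, Aldh3a1, which oxidizes aromatic and medium-chain aldehydes and is a major soluble protein of the mouse cornea, had 11.36 in K459 and 12.49 in TCPA18654, against 12.67 in TPC18645 and 7.34 in TPC20223. The gap between TPC20223 and the next line was 4.02 (16.2-fold), while the other lines spanned 1.31. At 7.34, TPC20223 lay just above the dim limit of 6.96, with 46.0% of genes at or below this signal on its array. Folds of Aldh3a1 that involve this line are therefore inexact as well. Aldh3a2, its neighbor on the chromosome and the fatty aldehyde dehydrogenase gene, had 10.85 in K459 and 10.45 in TCPA18654, against 10.48 in TPC18645 and 9.87 in TPC20223. These neighbors thus had ranges of 5.33 (Aldh3a1) and 0.98 (Aldh3a2). Aldh3b1, whose product acts on aldehydes of lipid peroxidation, had 10.33 in K459 and 10.55 in TCPA18654, against 10.74 in TPC18645 and 9.56 in TPC20223. TPC20223 was lowest for all 3 ALDH3 genes, though by only 0.58 for Aldh3a2 and 0.77 for Aldh3b1.

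The mitochondrial and carnitine-related genes had ranges of 0.58 to 1.14. Aldh2, the main acetaldehyde-oxidizing enzyme gene, had 11.73 in K459 and 11.93 in TCPA18654, against 12.02 in TPC18645 and 10.88 in TPC20223. Aldh1b1, known in the mouse pancreas from progenitor and centroacinar cells, had a dim signal of 6.89 in K459 and 6.56 in TCPA18654, against 6.85 in TPC18645 and 7.19 in TPC20223. Aldh9a1 had 10.95 in K459 and 10.64 in TCPA18654, against 10.62 in TPC18645 and 10.37 in TPC20223. Aldh1b1 and Aldh9a1 had the narrowest ranges of the 10 genes, 0.63 and 0.58, and for Aldh9a1 the gap between the lower TPAC line and the higher TPC line was 0.02, the difference of TCPA18654 and TPC18645.

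The width of the ranges was set beside all genes. A range over the 4 lines of 1 or more on the log2 scale was found in 7 of the 10 genes, where 15.9% of all genes had one; this width was among the values that led to the choice. Aldh1a1, with 6.60 (97.0-fold), was 1 of 10 genes of 19938 with a range as large (0.0502%), Aldh3a1, with 5.33 (40.2-fold), 1 of 61 (0.306%), and Aldh1a7, with 3.90 (14.9-fold), 1 of 204 (1.02%). The other 7 genes had ranges of 0.58 to 1.26, which 32.7% to 11.4% of all genes reached. Without TPC20223 the ranges of Aldh1a1, Aldh1a7 and Aldh3a1 were 2.28, 1.58 and 1.31, reached by 0.878%, 2.13% and 3.12% of all genes, and those of the others at most 0.62. Without that line 3 of the 10 genes, against 4.96% of all genes, spanned 1 or more. These 3 include Aldh1a1 and Aldh3a1, which led to the choice, so this share is not independent of it. TPC20223 was the lowest line for 8 of the 10 genes and for 38.8% of all genes, and the highest for the other 2, Aldh1a2 and Aldh1b1, and for 28.1% of all genes. By 1 or more, it was lowest for 3 of the 10 genes (2.95% of all genes) and highest for 1 (4.24% of all genes).

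**Figure D2:**
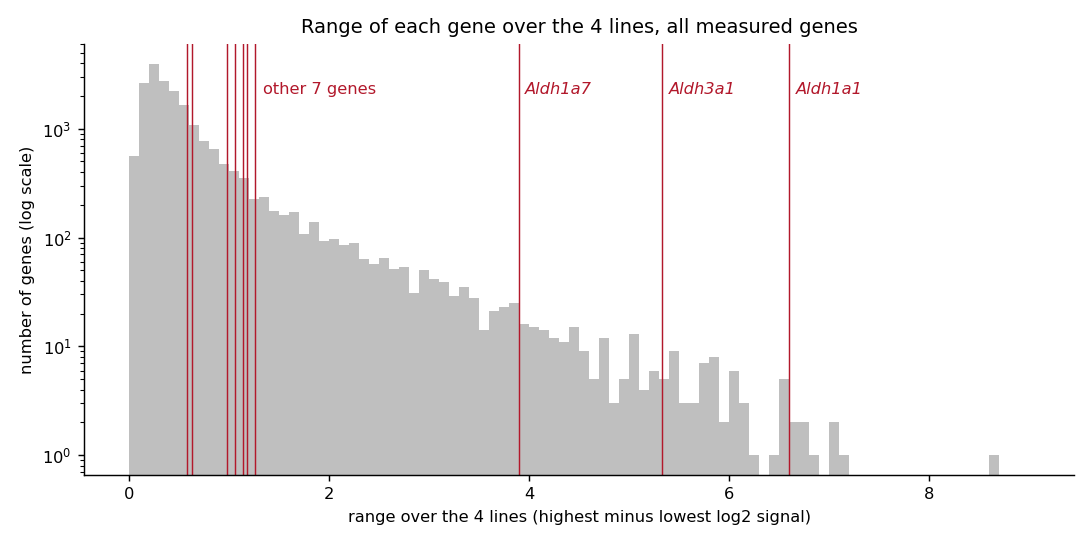
Number of genes (log scale) by range over the 4 lines, highest minus lowest log2 signal, in bins of 0.1 over 19938 genes; red lines mark the 10 genes. Aldh1a7 (3.90), Aldh3a1 (5.33) and Aldh1a1 (6.60) lie in the right tail and the other 7 between 0.58 and 1.26.

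TPAC and TPC lines were then compared, the question of the series being which transcripts differ between these genotypes. With limma, requiring an adjusted p of at most 0.05 together with a difference of 0.58 on the log2 scale, none of the 10 genes was called, and of all 19938 genes 0.0% were called higher and 0.0% lower (smallest adjusted p = 0.989 by limma). When the unadjusted p was used in its place, 84 genes passed (0.421%), and 1 of the 10 was among them. An exact two-sided permutation test of 2 lines against 2 cannot go below p = 0.333. The mean was higher in TPAC for 8 of the 10 genes and lower for 2, with a median log2 difference of 0.43 against 0.02 over all genes. The median was -0.16 without TPC20223 and -0.02 over all genes.

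Aldh1a3 was the gene with the unadjusted p under 0.05. Its signal averaged 8.35 ± 0.13 in the TPAC lines and 7.60 ± 0.31 in the TPC lines (SD, n = 2 each), and the difference was 0.74 ± 0.21 on the log2 scale (standard error; limma, unadjusted p = 0.0277, adjusted p = 0.989). Without TPC20223 the difference was 0.53. Aldh1a3 and Aldh9a1 were the 2 genes whose TPAC lines both lay above both TPC lines, an arrangement that 13.7% of all genes had, and none of the 10 had the opposite one, which 13.3% of all genes had. Aldh9a1 averaged 10.80 ± 0.22 in TPAC and 10.50 ± 0.18 in TPC lines (SD, n = 2 each), a difference of 0.30 that was 0.18 without TPC20223.

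For the genes of wide range the genotype means said little, since their TPC lines lay at both ends. Aldh1a1 averaged 11.10 ± 1.33 in TPAC and 9.14 ± 4.67 in TPC lines (SD, n = 2 each), which differ by 1.96 ± 2.51 (log2, standard error), and by -1.34 without TPC20223. Aldh3a1 averaged 11.93 ± 0.80 in TPAC and 10.01 ± 3.77 in TPC lines, which differ by 1.92 ± 2.0, and by -0.74 without TPC20223. Aldh1a7 averaged 8.43 ± 0.65 in TPAC and 7.60 ± 2.76 in TPC lines, a difference of 0.83, and -1.12 without TPC20223. Their differences were smaller than the spread between the TPC lines, and their direction turned with that 1 line. Aldh2 and Aldh3b1 did the same on a smaller scale, with 0.38 and 0.29 over the 4 lines and -0.19 and -0.30 without TPC20223. Aldh3a2 differed by 0.47 and by 0.17 without this line, and the dim genes Aldh1a2 and Aldh1b1 by -0.62 and -0.30 and, without it, by -0.005 and -0.13.

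**Figure D3:**
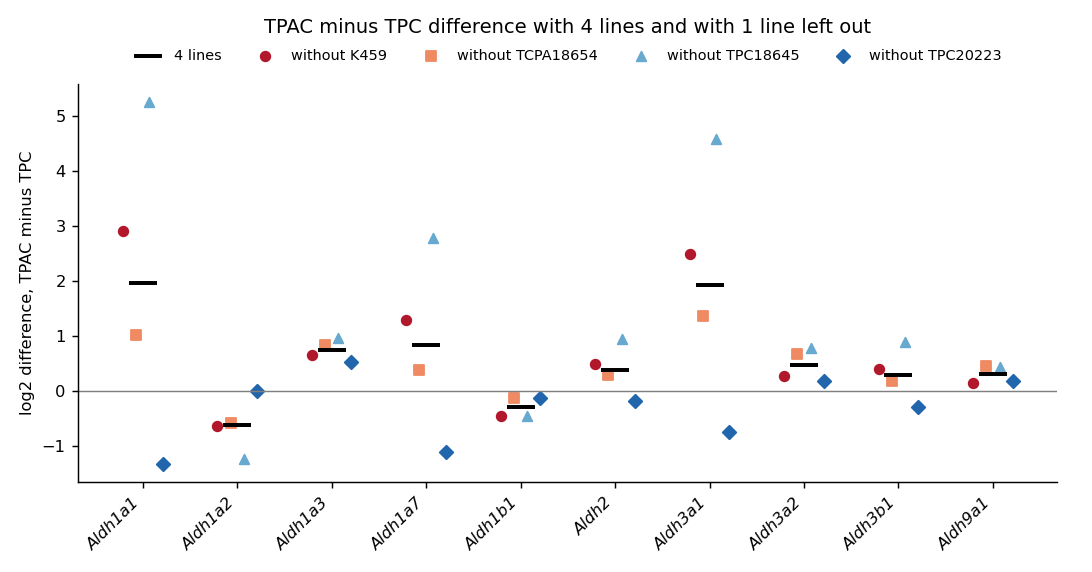
Log2 difference of each gene, mean of the TPAC lines minus mean of the TPC lines, with 4 lines (black bars) and with 1 line left out (points, colored by the line left out). Without TPC20223 the differences of Aldh1a1, Aldh1a7, Aldh2, Aldh3a1 and Aldh3b1 lie below 0, from -1.34 to -0.19.

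Comparing single lines with each other, with 1 array each and hence no test, showed where the family differed. TCPA18654 and TPC18645 had 0 of the 10 genes at least 2-fold apart, where 0.271% of all genes were. The largest differences between them were -0.66 for Aldh1a7, 0.43 for Aldh1a3 and -0.40 for Aldh1a1, and differences of that size were seen in 1.06%, 4.48% and 5.58% of all genes. K459 and TCPA18654, both TPAC, had 2 of the 10 genes at least 2-fold apart, against 3.87% of all genes. These were Aldh1a1, lower in K459 by a log2 difference of -1.88 (3.68-fold), and Aldh3a1, by -1.13 (2.19-fold). K459 and TPC18645 had 3 genes at least 2-fold apart (4.34% of all genes), Aldh1a1 at -2.28, Aldh1a7 at -1.58 and Aldh3a1 at -1.31, all lower in K459. K459 therefore held an intermediate place for these 3 genes, under TCPA18654 and TPC18645 and over TPC20223.

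TPC20223 was the line with the most genes of the family apart from the others. Against TPC18645, 6 of the 10 genes were at least 2-fold apart, where 11.2% of all genes were. In this pair of TPC lines Aldh1a1 differed by -6.60, Aldh3a1 by -5.33, Aldh1a7 by -3.90, Aldh3b1 by -1.18, Aldh2 by -1.14 and Aldh1a2 by 1.23, TPC20223 minus TPC18645. A difference as large as that of Aldh1a1 was found in 5 genes of all (0.0251%). Against TPC20223, K459 and TCPA18654 each had 5 of the 10 genes at least 2-fold apart, where 10.9% of all genes were in either pair, with the highest values for Aldh1a1, 4.32 in K459 minus TPC20223 and 6.20 in TCPA18654 minus TPC20223. These pairs share the TPC20223 array and are not independent of each other.

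**Figure D4:**
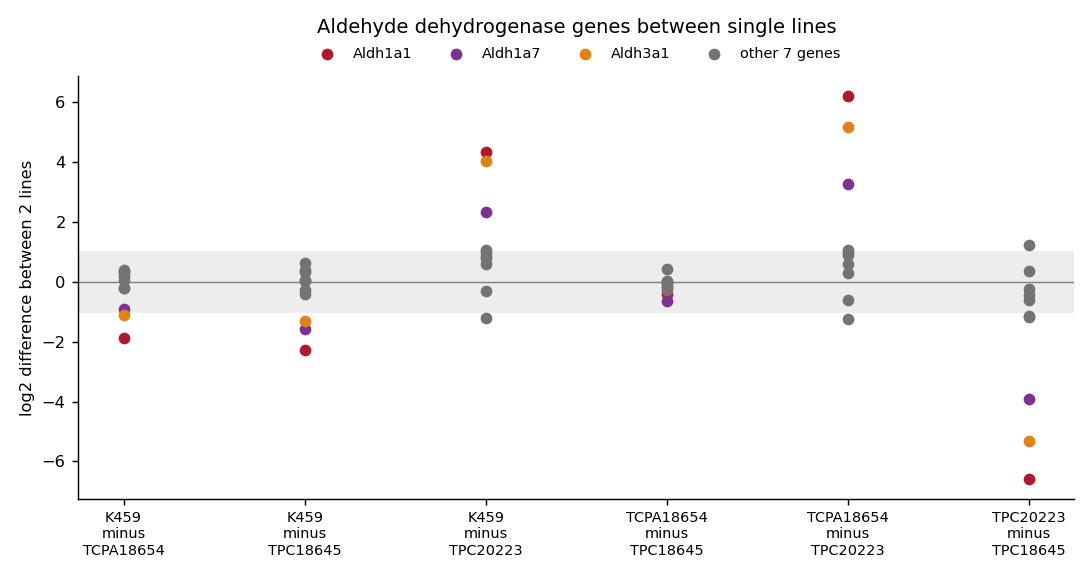
Log2 difference between 2 lines for each of the 10 genes, for the 6 pairs of lines; points are genes, with Aldh1a1, Aldh1a7 and Aldh3a1 in red, purple and orange, and the grey band marks differences of less than 1 in size. The pair of TCPA18654 and TPC18645 stays within the band (-0.66 to 0.43), while Aldh1a1, Aldh1a7 and Aldh3a1 leave it in each pair with TPC20223.

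The genes whose profile over the 4 lines was nearest to the 2 of widest range were then listed, by the Euclidean distance of log2 signals centered on each gene's mean. Nearest to Aldh1a1 were Plac8 (distance 0.79), Apob (0.92), Msln (0.96), Aldh3a1 (1.04) and Sprr1a (1.35). Nearest to Aldh3a1 were Gpd1 (0.54), Msln (0.61), Vnn1 (0.65), Plac8 (0.67) and Trf (0.79). This distance depends on the span of a profile as well as its shape. By it Aldh1a1 and Aldh3a1, on different chromosomes, were closer to each other than Aldh1a7, at rank 32 for both, was to either. Aldh1a7 had the same order of lines over a narrower range, 3.90 against 6.60 (Aldh1a1) and 5.33 (Aldh3a1). Its rank therefore does not show a different shape. Msln, the mesothelin gene and a surface antigen of pancreatic cancer, had 11.95 in K459 and 12.87 in TCPA18654, against 12.95 in TPC18645 and 7.10 in TPC20223. Plac8, expressed in pancreatic tumor cells, had 10.67 in K459 and 11.83 in TCPA18654, against 11.86 in TPC18645 and 5.86 in TPC20223. With 4 lines this likeness rests mainly on TPC20223.

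The 11 other aldehyde dehydrogenase genes measured had a median range of 0.73, against 1.16 in the 10 genes and 0.40 over all genes. Aldh1l2 (2.92) and Aldh1l1 (1.42) were the 2 that spanned 1 or more (18.2%, against 15.9% of all genes). Aldh1l2, the mitochondrial formyl-tetrahydrofolate dehydrogenase of folate metabolism, had 7.84 in K459 and 9.62 in TCPA18654, against 9.26 in TPC18645 and 10.76 in TPC20223. Its highest line was TPC20223, whereas its cytosolic relative Aldh1l1 was lowest there, with 8.18 in K459 and 7.71 in TCPA18654, against 7.88 in TPC18645 and 6.76 in TPC20223. Aldh18a1, which makes the precursor of proline, was also highest in TPC20223, at 11.77, and lay within 10.95 to 11.03 in the other lines. Aldh5a1, of GABA breakdown and of dim signal, had 7.39 in TPC20223 and 6.58 to 7.03 in the other lines. Aldh4a1, of proline breakdown, had the smallest p of the 11, with 7.63 in K459 and 7.90 in TCPA18654, against 8.11 in TPC18645 and 8.08 in TPC20223, a difference of -0.33 (limma, adjusted p = 0.989). None of the 11 genes was called, with 4 higher and 7 lower in TPAC and a median of -0.04.

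Genes before and after the retinaldehyde step went both ways in TPC20223. Of 27 retinoid pathway genes 26 were measured, of which 10 were lowest and 11 highest in that line, and 0 were called between TPAC and TPC (12 higher, 14 lower, median -0.01). Crabp1 and Crabp2, which encode cellular retinoic acid-binding proteins, had 12.16 and 9.47 in TPC20223, against 7.74 to 9.08 and 6.35 to 7.17 in the other lines. Dhrs9, a retinol-oxidizing dehydrogenase gene, had 10.42 in TPC20223 and 7.65 to 8.28 in the others. All 3 were higher in TPC20223 than in every other line by 2.14 or more. Stra6, the receptor for retinol-binding protein, had 9.11 in TPC20223 and 10.01 to 11.53 in the others. Rarb, a retinoic acid receptor gene, Dhrs3, which reduces retinaldehyde, and Rdh10, which forms it from retinol, were picked after their values were seen. They were lowest in TPC20223, at 6.76, 9.19 and 11.25, against 8.61 to 9.07, 10.37 to 11.55 and 12.88 to 13.20 in the other lines. Of the retinoic acid-degrading enzymes, Cyp26b1 had the smallest p of the list, with 7.60 in K459 and 8.06 in TCPA18654, against 8.44 in TPC18645 and 8.65 in TPC20223, a difference of -0.71 ± 0.22 (standard error) that was not called (limma, adjusted p = 0.989) and was -0.61 without TPC20223. Cyp26b1 and the receptor gene Rarg were the 2 genes of the list with an unadjusted p under 0.05. Rarg had 9.54 in K459 and 9.85 in TCPA18654, against 10.14 in TPC18645 and 10.48 in TPC20223. It was not called either (limma, adjusted p = 0.989).

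**Figure D5:**
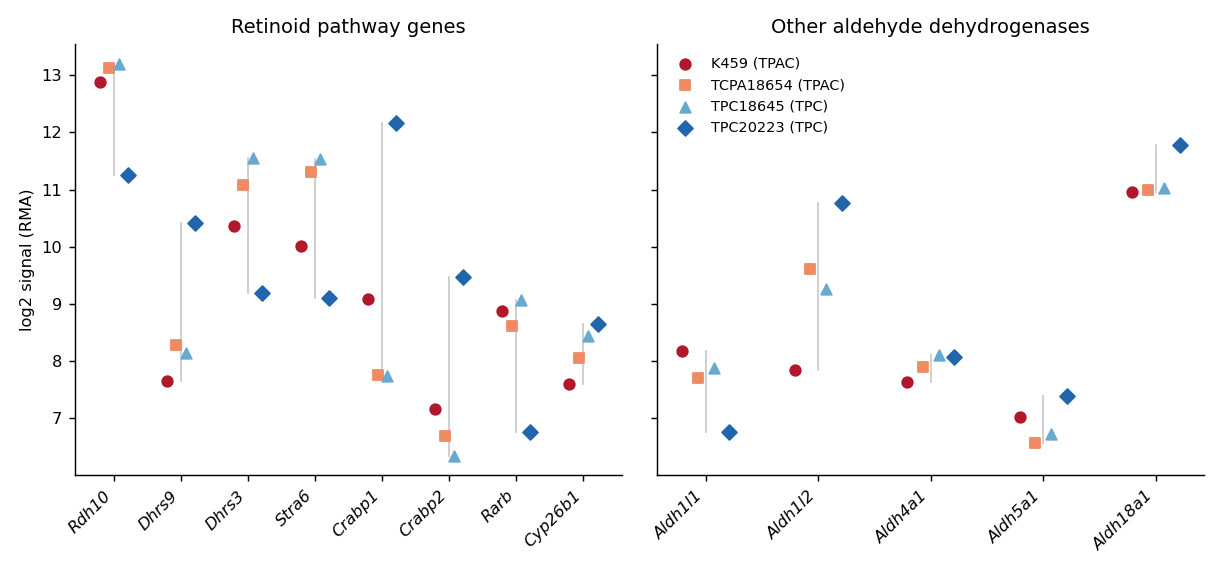
Log2 signal (RMA) of 8 retinoid pathway genes (left) and 5 other aldehyde dehydrogenase genes (right) in the 4 lines; each point is 1 array and grey bars span the range. Crabp1, Crabp2, Dhrs9 and Aldh1l2 are highest in TPC20223, and Rdh10, Dhrs3, Stra6, Rarb and Aldh1l1 are lowest there.

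Other enzymes that handle aldehydes had their own patterns. Of 14 measured alcohol dehydrogenase and aldehyde reductase genes, 7 spanned 1 or more, where 15.9% of all genes did. None was called (9 higher and 5 lower in TPAC, median 0.11). Akr1c14, a hydroxysteroid dehydrogenase gene, had 6.55 in K459 and 10.68 in TCPA18654, against 11.29 in TPC18645 and 7.70 in TPC20223, so that it was low in 1 line of each genotype. Akr1c13 was low in TPC20223, at 6.05 against 8.37 to 8.57 in the other lines. Adh7, which oxidizes retinol and ethanol in the upper digestive tract, was low in K459, at 7.93 against 9.57 to 10.02. Akr1c18 had the smallest p of this list at a dim signal, with 5.03 in K459 and 5.63 in TCPA18654, against 6.66 in TPC18645 and 6.28 in TPC20223 (difference -1.14).

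NRF2 and the aryl hydrocarbon receptor are transcription factors of the oxidative and xenobiotic responses, and Aldh3a1 is a known target of the aryl hydrocarbon receptor. Of 16 measured NRF2 targets 11 were lowest in TPC20223, where 38.8% of all genes were. Gsta4, a glutathione transferase that clears 4-hydroxynonenal, had 6.89 in TPC20223 and 12.47 to 12.77 in the other lines. Gsr, Gclc and Ephx1 had 9.73, 9.86 and 9.81 in TPC20223, against 11.20 to 11.43, 11.20 to 11.53 and 10.59 to 11.59 in the others. Hmox1 (10.91) and Nqo1 (9.15), which stands in both lists, were highest in TPC20223. None of the 16 was called between TPAC and TPC (12 higher, 4 lower, median 0.33, and 0.08 without TPC20223). Of the 6 measured aryl hydrocarbon receptor targets, Ahrr, the repressor of that receptor, had 9.62 in TPC20223 and 5.53 to 5.91 in the other lines, and Tiparp had 10.52 and 8.99 to 9.26. Cyp1b1, another target, was lowest in TPC20223, at 10.84 against 11.48 to 11.90. None of the 6 was called, with 3 higher and 3 lower and a median of -0.21.

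Of 11 genes used as markers of stem-like pancreatic cancer cells, all spanned 1 or more over the lines, where 15.9% of all genes did. None was called (7 higher and 4 lower in TPAC, median 0.30). The 3 of widest range did not have the order of lines of Aldh1a1. Prom1, which encodes CD133, had 9.44 in K459 and 7.03 in TCPA18654, against 6.40 in TPC18645 and 6.33 in TPC20223, and Lgr5 had 9.99 and 8.13 against 7.23 and 6.66. Epcam had 9.77 and 7.37 against 6.82 and 6.43. These 3 were the only genes of the 11 with both TPAC lines above both TPC lines, an arrangement that 13.7% of all genes had. The opposite one was seen in 1 of the 11 genes and in 13.3% of all genes. These 3 genes were highest in K459, the line with the intermediate Aldh1a1 signal, and close to their lowest in TPC18645, the line with the highest. Cd24a was instead low in TPC20223 alone, at 10.73 against 12.70 to 12.99. Lgr5 had the smallest p of this list, with a difference of 2.12 ± 0.72 (standard error; limma, adjusted p = 0.989), and of 1.83 without TPC20223.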

How the data were processed

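RNA of 4 cell lines was measured on Affymetrix Mouse Gene 1.0 ST arrays. The authors deposited log2 signals, made per the labels by RMA in Affymetrix Expression Console 1.4; RMA equalizes the distributions of arrays, so differences in total RNA are not seen (array medians 7.19 to 7.26). Genome build, filters and array batches are not given in the sources used here. Of 28941 clusters, 21789 have 1 symbol in the platform annotation; 21698 matched the RefSeq table of GRCm38.p6 by Entrez number. The cluster of highest mean stood for a gene, giving 19938 genes. Matching by number kept Aldh1a7 apart from Aldh1a2, which lists that symbol as a synonym.

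For TPAC against TPC, two-sided moderated tests were run with limma 3.58.1 (R 4.3.3, functions lmFit and eBayes), and p-values of all genes were adjusted together by Benjamini-Hochberg; the steps were tested on simulated data. Calls needed an adjusted p of at most 0.05 and 0.58 of log2 difference. The number of arrays limits the precision. Dim means a mean signal no higher than the 40th percentile. Members and lists were chosen with earlier results of these data known. Of each list, the 4 genes of widest range and that of smallest p were to be named; of the marker lists of other cell types, which are given as sums and counts, Krt18 alone is named. Also named are the 5 nearest profiles of Aldh1a1 and Aldh3a1. Rela, Rarb, Rarg, Dhrs3 and Rdh10 are named outside this rule. Alternatives were other normalizations, the mean of clusters, a filter on dim genes, an intensity trend, the methods' t-test and leaving out each line.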

Additional observations from a re-analysis of the deposited data

How the results depend on the processing

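In each setting tried, limma and the methods' t-test called 0 genes between TPAC and TPC. The count at an unadjusted p under 0.05 and a log2 difference of 0.58, 84 with 4 lines, was 50 with dim genes left out and 15 by the methods' t-test, and ran from 19 (without K459) to 2854 (without TPC18645) with 1 line left out, with 395 without TCPA18654. Settings that kept all lines turned no direction of the 10 genes in 58 comparisons. However, the dim-gene filter, intensity trend and t-test leave the difference itself as it is. The mean of clusters does so too, since each gene has 1. The common median shifted the lines of a genotype by opposite amounts (-0.015 and 0.015 in TPAC, 0.035 and -0.035 in TPC). The difference was therefore unchanged, and cyclic loess alone could move it. Under the common median and cyclic loess the counts of genes apart between 2 lines stayed within 1.5 times. Leaving out 1 line turned 5 directions, each without TPC20223: the TPAC minus TPC difference ran from -1.34 to 5.26 for Aldh1a1, from -1.12 to 2.78 for Aldh1a7, from -0.19 to 0.95 for Aldh2, from -0.74 to 4.58 for Aldh3a1 and from -0.30 to 0.88 for Aldh3b1. The adjusted p of the 10 genes was 0.132 to 0.998 over all settings by limma or the methods' t-test, and with 1 array left in a genotype this line is taken to vary like the other genotype's. Aldh1a2 and Aldh1b1 were not tested with dim genes left out. The cause of these shifts was not tested. Replicate numbers here follow accession order and pair no lines.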
